A study of Nomascus leucogenys and Hoolock leuconedys and Nomascus gabriellae with 23 samples.

Results

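LAVA is a composite retrotransposon found in gibbons, and the elements described here are its copies that the deposited table places in an intron and whose position spans the whole element. They were chosen as the rows with an intronic location and an end more than 1 bp beyond the start. The rule gave 543 of the 5490 listed sites, and 543 of the 1118 sites that span an interval. The other 2202 intronic sites were listed at a single base, with an end exactly 1 bp beyond the start, and the shortest chosen element was 550 bp long. Of the 543 elements, 139 were sense and 404 were antisense to the gene named for them. Blood DNA of 23 gibbons was sequenced, and each site has a call for each animal that it carries the insertion or does not. Nomascus was represented by 13 animals, of which 11 were Nomascus leucogenys and 2 Nomascus gabriellae. Hylobates was represented by 5 animals, namely 2 Hylobates moloch and 1 each of Hylobates lar, Hylobates muelleri and Hylobates pileatus. Hoolock leuconedys was represented by 3 animals and Symphalangus syndactylus by 2. No treatment, age or relation between animals is stated in the sources used here.

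LAVA elements are built from pieces of other repeats, including Alu-like sequence, a variable number of tandem repeats and a fragment of a LINE. Such non-autonomous elements are thought to be copied through an RNA by the enzymes of LINE-1. Copying starts at the 3′ end of the RNA, so incomplete copies of this kind commonly lack the 5′ part. An element inside an intron is transcribed along with the gene. If it lies in sense orientation, its own transcript signals, such as those for polyadenylation, are read in the same direction as those of the gene, and if it lies antisense their complement is read.

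All 543 elements were carried by Nomascus replicate 1, a Nomascus leucogenys, as were all 1118 interval sites. No interval site was therefore absent from Nomascus, and carrier numbers there lie near their ceiling. Nomascus replicate 1 is labelled Asia.NLE, and the RefSeq assembly used here for gene names is called Asia_NLE_v1. Whether the sites were placed on a genome of that animal is not stated in the sources used here. The number of reads behind each call is unknown, so intervals here cover counting error over elements only. Tests over elements treat each as independent, although 55 share a gene name with another. Coordinates are those of the table, counted from 1, and the sources used here do not name their genome build. Of the 12489 calls for these elements, 52 (0.416%) were missing, spread over 22 elements, and missing calls were read as not carried.

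The first question was how the elements lie relative to their gene. Sense elements made up 25.6% of the 543 (95% exact interval 21.98 to 29.5), which differed from 50% (exact binomial test, two-sided, p = 5.70e-31). The excess of antisense elements was present in each of 4 length classes of nearly equal size. The sense share was 23.5% among the 136 shortest elements (550 to 929 bp, interval 16.7 to 31.6) and 27.4% among the 135 longest (1740 to 5113 bp, interval 20.1 to 35.7). Antisense elements outnumbered sense elements on each of the 25 chromosomes that held any. Among the 20 chromosomes with at least 10 elements the sense share ran between 14.8% on chromosome 17 and 39.4% on chromosome 6. Counting 1 element per gene name left 514 elements, of which 25.9% were sense.

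The sense share was lower than in each of the 3 most similar classes of site. It was 25.6% against 41.6% (interval 39.5 to 43.6) at the 2202 intronic single-base sites, a difference of -16.0 percentage points (95% interval -20.0 to -11.6). Limiting the intronic single-base sites to the 1410 that reach 540 bp, which is as long as the shortest interval site, left 38.9% sense, a difference of -13.3 points (interval -17.7 to -8.75). In promoter and terminator sequence 35 of 83 interval elements were sense (42.2%), a difference of -16.6 points (interval -27.9 to -5.82). Fisher's exact test adjusted over the 3 comparisons gave p = 9.06e-12, p = 3.86e-08 and p = 0.00241 for these, in the order given. How the authors found the interval and the single-base sites is not stated in the sources used here. All interval sites were carried by Nomascus replicate 1, and the form, carriage by this animal and the way of finding were not told apart here.

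**Figure D1:**
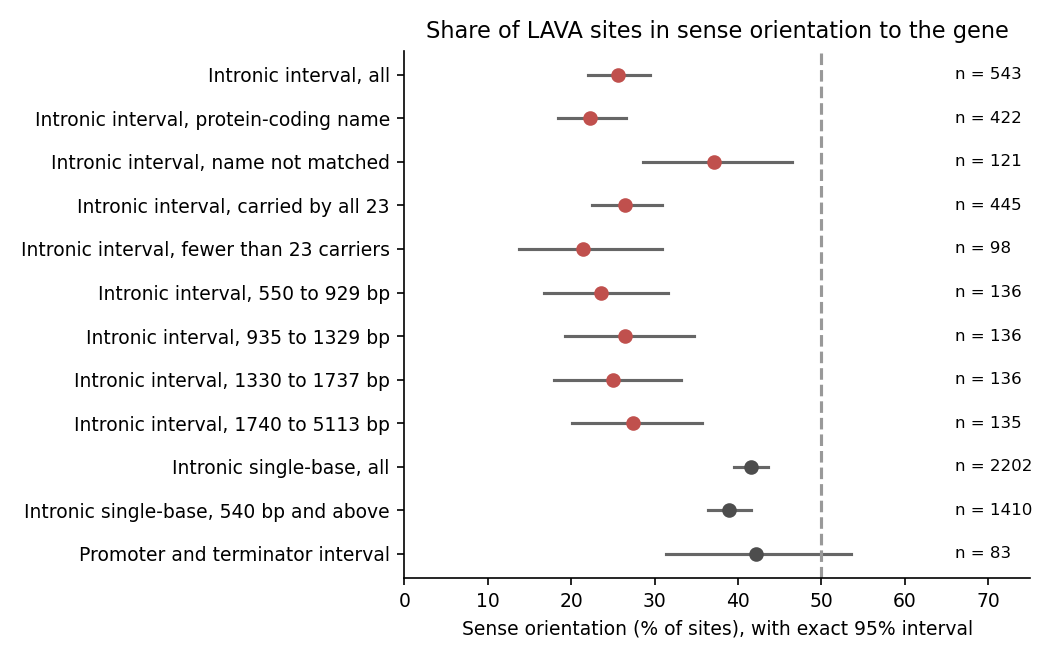
Percentage of LAVA sites in sense orientation to the gene (points) with exact 95% intervals (lines), for intronic interval elements and their subsets (red) and for other classes of site (grey); the dashed line marks 50%. The intervals of the 9 red points drawn lie below 50%, and the share of all 543 elements (25.6%) lies below those of the other classes (38.9% to 42.2%).

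The share also varied with the kind of gene name. Elements with a name that RefSeq lists as protein-coding for Nomascus leucogenys were sense in 94 of 422 cases (22.3%, interval 18.4 to 26.6). Elements whose name was not found there were sense in 45 of 121 cases (37.2%, interval 28.6 to 46.4). The unmatched names include clone-based names such as AC093895.1 and non-coding genes such as LINC02133, but also older symbols of protein-coding genes, such as ST5 and KIAA0368. The intervals do not overlap, and the difference itself was not tested.

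The second question was whether sense and antisense elements differ in size. The sense elements were 559 to 3580 bp long with a median of 1350 bp, and the antisense elements were 550 to 5113 bp long with a median of 1316.5 bp. The quartiles were 967.5 and 1768 bp in sense elements, and 912.25 and 1722 bp in antisense elements. Of the sense elements 71 of 139 (51.1%) reached the median of all members, 1329 bp, and of the antisense elements 201 of 404 (49.8%) did. The difference was 1.33 percentage points (interval -8.23 to 10.8), and Fisher's exact test adjusted over 10 features gave p = 1. The interval leaves room for a difference of several points in either direction.

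**Figure D2:**
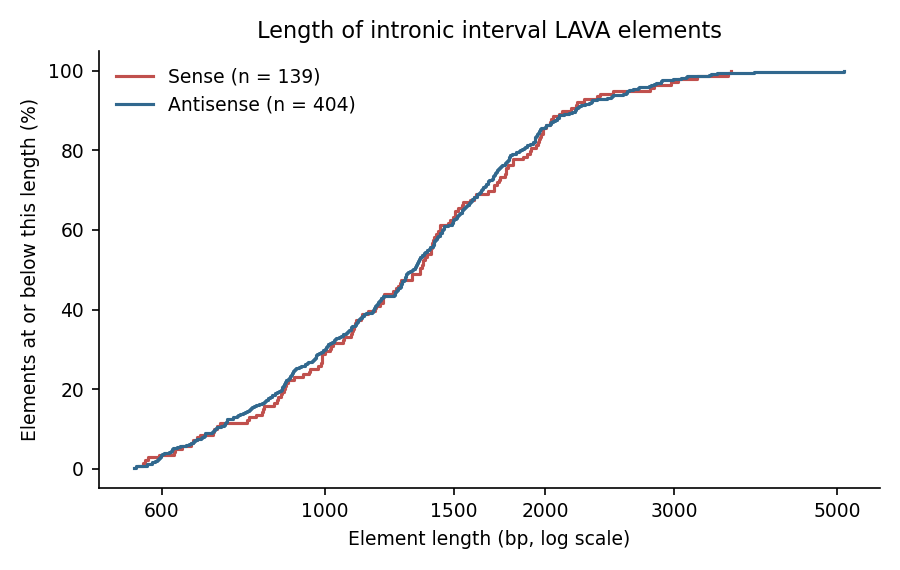
Cumulative percentage of intronic interval elements at or below a given length (bp, log scale), for 139 sense elements (red) and 404 antisense elements (blue). The curves run close together, with medians of 1350 bp and 1316.5 bp.

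Both orientations held very long elements. The longest sense elements lay in STXBP5L (3580 bp), a gene for a syntaxin-binding protein, and in DNAJC25 (3552 bp), a gene for a DnaJ-type co-chaperone. STXBP5L held a second sense element of 2965 bp, 37504 bp away on chromosome 21. The longest antisense elements lay in PIGU (5113 bp), which encodes a subunit of the enzyme that attaches GPI anchors, in C12orf4 (3854 bp) and in RAD54L (3426 bp), which encodes a motor protein of recombination. The PIGU element was carried by all 13 Nomascus and by a single other animal, a Hoolock. At the other end, sense elements of 559, 565 and 569 bp lay in the cadherin gene CDH8, the nuclease gene DNASE1 and the choline kinase gene CHKA. Antisense elements of 550 and 553 bp lay in PATJ, a gene for a cell polarity scaffold, and in TXLNG.

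The third question was which part of the LAVA consensus the elements hold. The table gives a start and an end on a consensus whose highest listed position is 1839. Few elements reached the first 50 positions, 5 of 139 sense (3.60%) and 16 of 404 antisense (3.96%). The median start was 759 in sense elements and 798.5 in antisense elements. A start at or before the median of all members, 793, was found in 74 sense elements (53.2%) and 201 antisense elements (49.8%). The difference of 3.48 points (interval -6.10 to 12.9) did not pass Fisher's exact test (adjusted p = 1). The median end was 1824 in both orientations, and an end at or beyond it was found in 51.8% of sense and 51.7% of antisense elements (Fisher's exact test, adjusted p = 1).

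Starts and ends piled up at a few positions. Position 421 was the start of 38 elements, 8 sense and 30 antisense, whereas the next most frequent starts, 929 and 435, had 12 elements each. The 38 elements had a median length of 1978.5 bp, against 1271 bp for the other 505. They included DOCK9 (2428 bp, antisense) and MYO9A (1953 bp, sense), both regulators of small GTPases, and the ADAM10 element that is carried in Nomascus alone (1409 bp, antisense). Of the intergenic interval elements 13 of 491 (2.65%) started at 421, and of the intronic ones 6.998%. No intronic single-base site of 2202 did, which allows a share of up to 0.136% (3 sites of 2202). Ends fell mainly in 2 groups, with 182 elements (33.5%) at 1814 to 1817 and 239 (44.0%) at 1830 or above. Sense elements held 42 (30.2%) and 62 (44.6%) of these, and antisense elements 140 (34.7%) and 177 (43.8%). All 2202 intronic single-base sites ended at 1838 or 1839. These peaks were chosen after their values were seen and were not tested.

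Elements that stop well short of the consensus 3′ end were few. An end below position 1700 was found in 10 of 139 sense elements (7.19%, interval 3.50 to 12.8) and in 7 of 404 antisense elements (1.73%, interval 0.699 to 3.54). The sense elements were those of APOH, DEUP1, DNAJC25, GIPC2, PDSS1, RAB27A, SSH2, ZNF883, SLC16A1-AS1 and AP001830.2. The antisense elements were those of ANAPC5, FAM168A, KANK1, LARP1B, MTMR3, RAD54L and AL445231.1. The lowest ends were 748 in APOH, which encodes a plasma phospholipid-binding protein, and 783 in ANAPC5, which encodes a subunit of the anaphase-promoting complex. Among the 17 elements, 14 were carried by all 23 animals. Position 1700 was chosen after the ends were seen, and with it Fisher's exact test gave an adjusted p of 0.0324 (129 sense elements, 92.8%, against 397 antisense elements, 98.3%, at or beyond it). With the limit at 50 positions before the last one, 129 sense and 392 antisense elements reached it, and the adjusted p was 0.431 by Fisher's exact test.

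**Figure D3:**
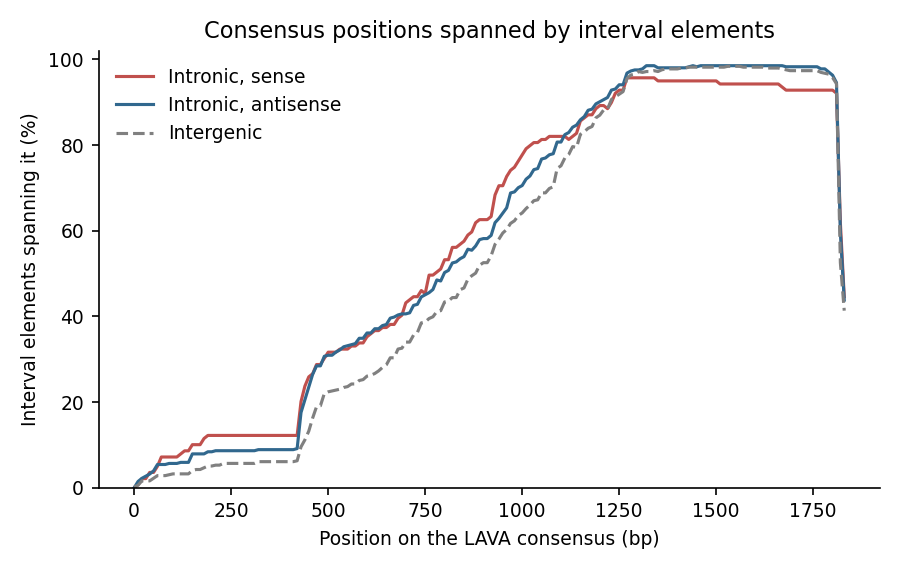
Percentage of interval elements whose consensus start and end enclose each consensus position, for sense intronic elements (red), antisense intronic elements (blue) and intergenic elements (dashed grey). At position 400 it is 12.2% of sense, 8.91% of antisense and 6.11% of intergenic elements; at position 1700 it is 92.8%, 98.3% and 97.4%.

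Most elements were longer than the stretch of consensus they were assigned to. The length exceeded the consensus span by over 50 bp in 86 sense elements (61.9%) and 243 antisense elements (60.1%), a difference of 1.72 points (interval -7.79 to 10.8, Fisher's exact test, adjusted p = 1). The median excess was 244 bp in sense and 168.5 bp in antisense elements. In PIGU it reached 3737 bp. At single-base sites the listed length equalled the span at all 4372, so lengths of the 2 forms are not the same quantity. Which part of an element holds the additional bases was not tested, since the table holds no sequence of the elements.

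The fourth question was how the intronic elements compare with the 491 intergenic elements of the same form. The limits of 1329 bp, 793 and 1824 are the medians of the intronic elements, so the intronic shares lie near 50% in advance. The intronic elements were longer, with a median of 1329 bp against 1166 bp, and 272 of 543 (50.1%) reached 1329 bp against 186 of 491 (37.9%). The difference was 12.2 points (interval 6.16 to 18.1, Fisher's exact test, adjusted p = 0.000399 over 4 features). With the limit at 1000 bp it was 7.21 points (Fisher's exact test, adjusted p = 0.0288), and at 1500 bp 9.69 points (adjusted p = 0.00455). They also began earlier on the consensus, with 50.6% against 41.8% starting at or before 793, a difference of 8.89 points (interval 2.81 to 14.9, Fisher's exact test, adjusted p = 0.00987). No other limit on the start was tried for this comparison. For an end at 1824 or beyond, the shares were 51.7% and 45.4%, and the difference of 6.33 points did not pass the test (Fisher's exact test, adjusted p = 0.0616). Carriage by all 23 animals was found for 445 intronic elements (82.0%) and 392 intergenic elements (79.8%), a difference of 2.12 points (interval -2.67 to 6.94, Fisher's exact test, adjusted p = 0.428).

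The fifth question was who carries the elements. All 23 animals carried 118 of 139 sense elements (84.9%) and 327 of 404 antisense elements (80.9%), a difference of 3.95 points (interval -3.79 to 10.4, Fisher's exact test, adjusted p = 1). All 13 Nomascus carried 138 sense and 400 antisense elements. No Hylobates animal carried 6 sense (4.32%) and 24 antisense elements (5.94%). No Hoolock animal carried 9 sense (6.47%) and 35 antisense elements (8.66%). No Symphalangus animal carried 13 sense (9.35%) and 32 antisense elements (7.92%). None of these differences between orientations passed Fisher's exact test (adjusted p = 1 for each). Some but not all of the 5 Hylobates animals carried a further 15 sense and 45 antisense elements. The group of Hylobates holds 4 species, whereas Hoolock and Symphalangus hold 1 each.

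**Figure D4:**
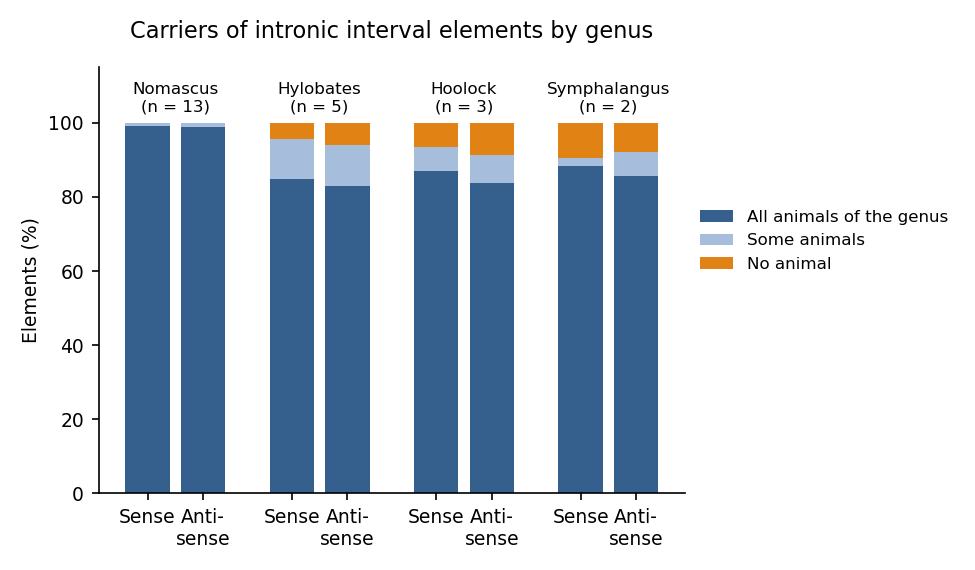
Percentage of sense and antisense intronic interval elements carried by all, some or none of the animals of each genus (stacked bars; n is the number of animals). In Nomascus the bars for all animals reach 99.3% and 99.01%, and in the other genera they lie between 82.9% and 88.5%.

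Per animal, Nomascus carried 138 or 139 of the 139 sense elements and 400 to 404 of the 404 antisense elements. Hylobates animals carried 118 to 130 sense and 340 to 361 antisense elements, Hoolock animals 125 to 127 and 346 to 354, and Symphalangus animals 126 and 123 sense and 353 and 365 antisense. As percentages of each orientation, the Hoolock animals carried 90.6 ± 0.719% of sense and 87.0 ± 1.14% of antisense elements (SD, n = 3). The Nomascus animals carried 99.9 ± 0.200% and 99.7 ± 0.275% (SD, n = 13). The sense minus antisense percentage averaged 0.268 ± 0.353 points over the 13 Nomascus animals (SD). The mean was 1.89 ± 2.20 points over 5 Hylobates animals, 3.68 ± 1.80 over 3 Hoolock animals and 0.707 ± 3.63 over 2 Symphalangus animals (SD). The 3 Hoolock animals were at 2.30, 3.02 and 5.72 points, and the highest Nomascus animal, near its ceiling in both orientations, was at 0.990.

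Nearly all elements were carried in every Nomascus animal, and all of them in Nomascus replicate 1, so the Nomascus values lie near 0 with little room to vary. The differences of Nomascus from Hoolock (-3.42 points), Hylobates (-1.62 points) and Symphalangus (-0.439 points) are therefore given as values, with no test read from them. With missing calls left out, Nomascus minus Hoolock was -2.65 points. Hoolock animals had 6 to 13 missing calls for these elements, against 0 or 1 in Nomascus animals. Among the other 3 genera none of the pairs passed an exact two-sided permutation test adjusted over all 6 pairs. Hylobates minus Hoolock was -1.79 points (exact permutation test, adjusted p = 0.543) and Hylobates minus Symphalangus 1.18 points (exact permutation test, adjusted p = 0.571). Hoolock minus Symphalangus was 2.98 points (exact permutation test, adjusted p = 0.571), where 3 against 2 animals cannot go below 0.1 before adjustment.

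**Figure D5:**
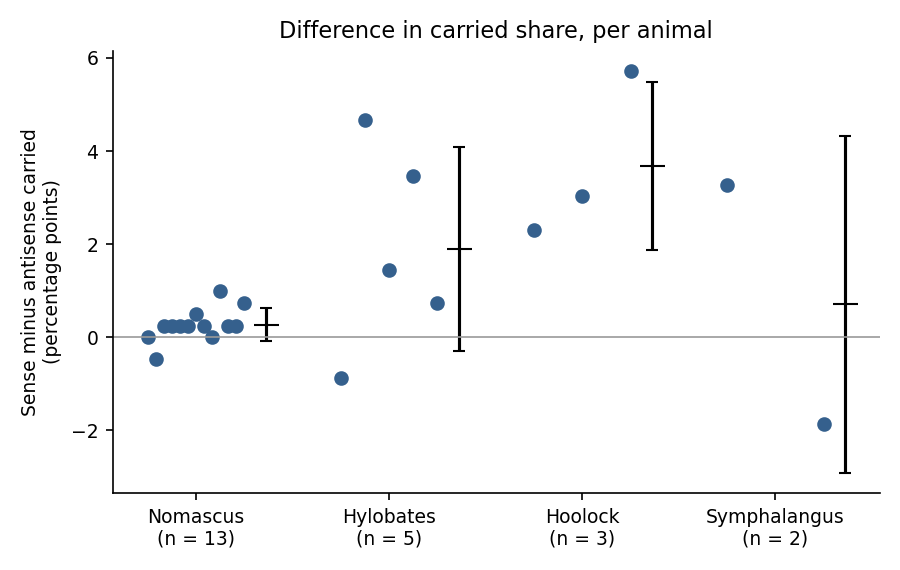
Percentage of sense elements carried minus percentage of antisense elements carried, for each animal (points), with the mean and SD of each genus beside them. The 13 Nomascus animals carried nearly all elements of both orientations, so their values (-0.472 to 0.990) have little room to vary. No contrast of the other genera with Nomascus is read from them. The 3 Hoolock animals lie at 2.30 to 5.72 points, while Hylobates and Symphalangus animals fall on both sides of 0.

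At single sites, carriers in the 13 Nomascus were compared with carriers in the 10 other animals over the whole table. Carriers were more frequent in Nomascus at 66 of the 543 elements (12.2%), against 3.01% of all 5490 sites (Fisher's exact test, with p-values adjusted over the whole table). The count was 16 of 139 sense elements (11.5%) and 50 of 404 antisense elements (12.4%), and 64 of 491 intergenic interval elements (13.03%). Carriers were less frequent in Nomascus at 0 of the 543 elements, also at an unadjusted p under 0.05, against 4.79% of all sites. Every interval site was carried by Nomascus replicate 1, which favours calls in the first direction and works against the other. Neither count is therefore a result about introns or about Nomascus, and the called elements are only described. Of the 16 sense elements called, 13 had no carrier among the 2 Symphalangus, 9 none among the 3 Hoolock and 5 none among the 5 Hylobates. Of the 50 antisense elements, the counts were 28, 28 and 22. The groups differ in size, so these counts are not compared between genera.

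Every element called in this way had at most 4 carriers outside Nomascus. All 13 Nomascus and no other animal carried 6 of them, 1 sense and 5 antisense, with the antisense ones in AL589740.1, ADAM10, NEK1, NRG1 and MAD1L1. The sense element lay in ST5, which encodes an exchange factor for Rab GTPases (chromosome 15, 70605680 to 70606399, 720 bp). An antisense element of 806 bp lay in the kinase gene NEK1 (chromosome 7b, 93298116 to 93298921). The antisense element of AL589740.1 had 3 missing calls, as did that of ADAM10, so up to 3 animals may carry them unseen. The sense elements next lowest in carriers were those of the kinase gene CDKL1 (1577 bp) and of AC093895.1 (704 bp), each in 13 Nomascus and 1 Hoolock.

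Only 5 elements were not carried by every Nomascus animal. The antisense element of MAGI2, a synaptic scaffold gene, had the fewest carriers of all, 4 Nomascus and 1 Symphalangus (chromosome 13, 51797489 to 51799013, 1525 bp). The antisense element of OSBPL3, an oxysterol-binding protein family gene, was carried by 8 Nomascus and 1 Hylobates (629 bp), while a second antisense element of 706 bp in the same gene was carried by all 23 animals. TMEM132D had an antisense element in 12 Nomascus and no other animal (1180 bp). SCFD2 had one in 11 Nomascus, 1 Hoolock and 1 Symphalangus (595 bp), and HEPHL1 a sense element in 12 Nomascus and 2 Hylobates (1809 bp). SCFD2 had 2 missing calls, and the other 4 elements had none.

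Elements missing from 1 genus only were found for each of the other genera. Missing from Hylobates only were 1 sense and 4 antisense elements, the sense one in DENND2C, a gene for an exchange factor of Rab GTPases (824 bp, all 3 Hoolock). Antisense ones lay in ABHD18, SCFD2 and the RNA methyltransferase gene NSUN5 (1103 bp, with 6 missing calls). Missing from Hoolock only were 2 sense and 11 antisense elements. The sense ones lay in SLC22A6, a kidney organic anion transporter gene (864 bp), and PHYH, a peroxisomal enzyme gene (1028 bp), and an antisense one in VPS13A, a lipid transfer protein gene (2205 bp). Missing from Symphalangus only were 2 sense and 10 antisense elements. The sense ones lay in the non-coding gene LINC02133 (1399 bp) and in AC093523.1 (706 bp, 5 missing calls), and an antisense one in SNAPC3, a gene of the small nuclear RNA transcription complex (1572 bp).

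The last question was which genes hold the elements. The 543 elements carried 514 gene names, of which 401 were found in RefSeq, all protein-coding. A name with more than 1 element was rare, 9 of 139 sense elements (6.47%) and 46 of 404 antisense elements (11.4%), a difference of -4.91 points (interval -9.52 to 1.12, Fisher's exact test, adjusted p = 1). There were 26 such names, 19 with antisense elements only, 2 with sense elements only and 5 with both. The 2 with sense elements only were STXBP5L and ABCB10, a mitochondrial transporter gene whose sense elements of 1349 and 1401 bp lay 2596 bp apart, the smallest distance of the 29 neighbouring pairs. The median distance was 29541 bp.

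Each of 3 gene names held 3 elements. NEMF, a gene of ribosome quality control, held antisense elements of 710 and 880 bp and between them a sense element of 1192 bp, all carried by all 23 animals (chromosome 1a, 81670282 to 81700309). TYW1B, a paralogue of a gene for modifying tRNA, held antisense elements of 1288, 857 and 1003 bp, also carried by all 23. FAM168A held antisense elements of 2216, 1447 and 1785 bp on chromosome 15. Its first element spanned consensus positions 147 to 982 and was carried by 13 Nomascus, 1 Hylobates and 1 Symphalangus, while the other two were carried by all 23 animals. Both orientations were also found in KIAA0368 (908 bp sense, 2295 bp antisense), KLHL23 (1358 bp sense, 884 bp antisense), FAM230C (1350 bp sense, 1436 bp antisense) and STAG3L5P-PVRIG2P-PILRB (1609 bp sense, 1496 bp antisense).

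Gene lists were used to describe the genes by role, with no test of enrichment. Of 111 chromosome segregation and spindle genes, 12 held 1 element each, 5 sense and 7 antisense, with a median length of 1370.5 bp against 1329 bp for all members. Sense elements lay in CLASP2, a microtubule plus-end gene (935 bp), and in the cohesin acetyltransferase gene ESCO1 (992 bp). Antisense elements lay in the anaphase-promoting complex genes ANAPC1 (1073 bp) and ANAPC5 (1519 bp), in CEP164 (1411 bp), a centriole appendage gene, and in the checkpoint gene MAD1L1 (1875 bp). All 23 animals carried 11 of the 12, the exception being that of MAD1L1, which only Nomascus carried.

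Of 146 microtubule and cilium genes, 9 held 10 elements, 2 sense and 8 antisense. CFAP70, a ciliary gene, held antisense elements of 687 and 1710 bp. BBS9, a gene of the BBSome transport complex of cilia, held an antisense element of 1654 bp, and CEP112 (829 bp), CEP78 (1435 bp) and the intraflagellar transport gene IFT80 (1800 bp) held 1 antisense element each. All 23 animals carried 9 of the 10, the exception being that of NEK1. Of 114 DNA repair genes, 7 held 8 elements, 0 sense and 8 antisense. They include PARP8 (1862 bp), RAD54L and the checkpoint clamp gene RAD9A (1938 bp), whose element spanned consensus positions 1 to 1822.

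Of 159 genes on a list named for neuronal adhesion, synapse and ion channels, 14 held 15 elements, 1 sense and 14 antisense. The median length of these elements was 960 bp. The list includes FHIT and IMMP2L, each with an antisense element, whose roles lie outside its name. All 23 animals carried 7 of the 15, against 445 of all 543. The list was chosen with earlier results of these data known, and this contrast was not tested. The sense element was that of CDH8, carried by 13 Nomascus and 2 Hoolock. NRG1, a growth factor gene, held antisense elements of 657 bp, carried in Nomascus alone, and 711 bp, carried by every animal except the 3 Hoolock. CNTN4, a neuronal contactin gene, held one of 620 bp in 13 Nomascus, 2 Hylobates and 2 Hoolock. CSMD1 (598 bp) and the reelin pathway gene DAB1 (722 bp) held antisense elements carried by all 23.

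Of 130 chromatin and transcription regulators, 11 held 1 element each, 2 sense and 9 antisense. A sense element of 871 bp lay in BRWD3, and antisense elements in ARID4B (1170 bp), the histone demethylase genes KDM5B (963 bp) and KDM6A (1258 bp) and the histone methyltransferase gene KMT2C (1125 bp). Of 154 ubiquitin system genes, 8 held 9 elements, 2 sense and 7 antisense, all carried by all 23 animals. UBR4, a ubiquitin ligase gene, held antisense elements of 1746 and 1318 bp, and the F-box genes FBXL2 (623 bp) and FBXL7 (1239 bp) held the sense elements. Of 153 genes on a list named for small GTPase regulators, 7 held 1 element each, 3 sense and 4 antisense. The sense elements of MYO9A and of RAB27A (575 bp), a gene of vesicle transport, were carried by all 23 animals. The antisense element of ARHGAP28 (815 bp) was carried by 13 Nomascus, 1 Hylobates and 2 Hoolock. With 7 to 15 elements a list, the orientation splits and the numbers of elements carried by all 23 animals are counts only.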

How the data were processed

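Blood DNA of 23 gibbons was sheared and sequenced on Illumina libraries, and the submitters' processing notes name BWA. No build, insertion caller or gene annotation is named in the sources used here, although the listed gene identifiers have the form of human Ensembl genes (ENSG). A single table was deposited by the authors, holding 5490 sites with coordinates, length, consensus start and end, orientation, gene, location and a call per animal (carried, not carried or missing); these are categories and positions, with no normalization, and read depth is unknown.

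At all 1118 interval sites end minus start equalled the listed length, so 1 was added to the start to count from 1. Missing calls were read as not carried. Gene names were matched to RefSeq gene names and synonyms of assembly Asia_NLE_v1, of which only names, synonyms and gene types were used, and 401 of 514 names matched. Animals were grouped by genus from the labels, which give no relation between animals. The p-values of tests over animals measure only the spread between these samples. Those of tests over elements hold no spread between animals.

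Sense and antisense elements were compared at the median of all members by Fisher's exact test over 10 features, intronic and intergenic elements over 4 features, and the sense share with other sites over 3 comparisons, each family with Benjamini-Hochberg adjustment. Shares have exact (Clopper-Pearson) and differences Newcombe 95% intervals. Animals were compared by exact two-sided permutation tests over 6 genus pairs, of which the 3 with Nomascus are given as values only. Carriers in Nomascus against the 10 other animals were tested at each site with Fisher's exact test and adjusted over the 5490 sites; that step was tested on simulated data. The threshold was an adjusted p of 0.05. Python 3.11.15, scipy 1.17.1, pandas 2.3.3 and statsmodels 0.14.6 were used.

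The elements and the gene lists were chosen with earlier results of these data known. Elements were named if their gene held at least 3, if they were among the 3 longest, shortest or least carried of an orientation, if only Nomascus carried them (all 13 animals), if 1 other genus lacked them (up to 4 a genus), if their gene was among the first 5 of a list, or if their gene held both orientations. Elements chosen after their values were seen are those with an end below 1700, those starting at 421, and those not carried by every Nomascus. A few genes that the naming rule takes are left out of the text. Alternatives were other limits on length, start, end and excess length, 1 element per gene name, other readings of missing calls, a threshold of 0.01, and leaving out animals outside Nomascus in turn.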

Additional observations from a re-analysis of the deposited data

Results flagged for a closer look

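The sense minus antisense percentage of elements carried was set apart between Nomascus and Hoolock by an exact permutation test. All 543 elements were carried by Nomascus replicate 1, which fixes that animal at 0. The other Nomascus animals were found to carry nearly all of them, so their values have little room to vary. The sense minus antisense percentage averaged 0.268 ± 0.353 points in Nomascus (SD, n = 13) and 3.68 ± 1.80 points in Hoolock (SD, n = 3), a difference of -3.42 points. The test therefore does not show a difference between these genera, and only the values are given. All 3 Hoolock animals were positive, and of the 13 Nomascus animals 10 were positive, 2 were at 0 and 1 was negative. In Hoolock animals 6 to 13 calls were missing, against 0 or 1 in Nomascus animals, and with missing calls left out the difference was -2.65 points.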

How the results depend on the processing

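Of 123 alternatives, 110 kept the direction and the side of the threshold. The sense share of the elements was 25.9% with 1 element per gene name, 22.3% with protein-coding names only, 26.5% among elements carried by all 23 animals, 25.9% from 1000 bp and 25.5% with no missing call. Sense minus antisense differences that do not pass the test in the report turned negative at other limits, to -0.933 points for a length of 1500 bp, -0.363 for a start at or below 50, -4.22 for an end within 50 positions of the last one, -1.01 for an excess length over 20 bp and, with 1 element per gene name, -1.10 for the end at the median. The end at or beyond 1700, chosen after seeing the data, gave -5.46. For Nomascus minus Hylobates, leaving out missing calls gave -1.66 points, and for Nomascus minus Hoolock -2.65. Intronic minus intergenic elements at a length limit of 1000 bp gave 7.21 points, against 12.2 at 1329 bp. The cause of these shifts was not tested.

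With 1 animal left out in turn, Nomascus minus Hoolock ran between -4.11 and -2.40 points, and Nomascus minus Hylobates between -2.31 and -0.930. No call is read from either, since Nomascus lies at its ceiling, although the adjusted p crossed 0.05 without any 1 Hoolock animal and without Hylobates replicate 1. Nomascus minus Symphalangus ran between -3.00 and 2.13, positive without Symphalangus replicate 1, and Hylobates minus Symphalangus between -1.38 and 3.75, negative without Symphalangus replicate 2. Elements with carriers more frequent in Nomascus numbered 57 to 73. No paired analysis was made, since each animal gave a single sample and belongs to a single genus. With 2 or 3 animals in Symphalangus and Hoolock and no read depth, small differences between these genera and uncertain calls cannot be resolved.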

Other observations

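Zinc finger genes, most of which encode DNA-binding repressors, also held elements. Names that begin with ZNF belonged to 15 genes with 18 elements, of which 1 was sense and 17 were antisense, a sense share of 5.56% (exact interval 0.141 to 27.3) against 25.6% of all 543. The sense element was that of ZNF883 on chromosome 8 (3036 bp). Antisense elements included a pair in ZNF726 on chromosome 10 (2687 bp in 23 animals and 2874 bp in 22), a pair in ZNF589 on chromosome 4 (1030 and 1275 bp) and a pair in ZNF57 on chromosome 17 (1307 and 996 bp). The elements of ZNF177 (1195 bp) and ZNF564 (1365 bp) were carried by 14 and 15 animals. This group was chosen after its values were seen and was not tested.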
